A study of Cucumis sativus with 6 samples.

Results

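The genes described here are those that were clearly higher in Cshec2 mutant buds than in wild type (WT) buds of cucumber (Cucumis sativus) after several large families had been set aside. They were chosen from the authors' deposited table of genes that differ between the genotypes. A gene was kept when its lowest Cshec2 library lay above its highest WT library, when its Cshec2 mean was at least 1 and when that mean was at least 1.8 times the WT mean. Of the 1589 genes in the table, 291 (18.3%) had Cshec2 libraries wholly above the WT libraries, and 157 (9.88%) met all of these limits. A further 31 were then set aside: 2 by identifier and the others because their Swiss-Prot protein description names a kinase, a transporter, a DETOXIFICATION protein, a cytochrome P450, a glycosyltransferase, a bHLH, YABBY, WUSCHEL or NAC domain protein, ubiquitin, an F-box, auxin, gibberellin, abscisic acid, pectin or expansin. The remaining 126 genes are the members. The words were matched in that description only, so genes of these families can remain among the members. The Pfam field holds one of the words in 5 members: Csa5G602730, Csa5G157290, Csa3G748790, Csa3G841990 and Csa5G606780. Because the Cshec2 and WT values chose them, those values are a description, no p-value is given for any member, and groups that do not overlap are a property of the choice. A call of a member as higher, where calls are counted over the whole table, follows from the choice as well.

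RNA was sequenced from whole female flower buds taken 7 days before anthesis, from Cshec2-/- plants and from wild type plants, with 3 libraries for each genotype that the design text calls biological replicates. The labels name no further allele, treatment or variety, and they do not say what the mutation is or how many lines carry it. The values in the table are a normalised expression level whose unit the header does not name, so levels are compared for one gene between libraries and not between genes, and sums over genes are sums of the deposited numbers. Read depth is unknown. The table holds selected genes only, and its values summed to between 23592 and 24173 in the Cshec2 libraries and to between 41126 and 59342 in the WT libraries. No gene in it is described as HECATE, so the mutated gene was not used to check the genotype labels, and a list of pollen and anther words found 0 of its genes. A whole bud is a mixture of cell types, so more cells of a type and more RNA per cell cannot be told apart in any value below.

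HECATE proteins are bHLH transcription factors, known in Arabidopsis for their part in the growth of the stigma, style and transmitting tract and in the shoot meristem. In cucumber the surface of the young fruit carries spines, which are trichomes, and warts, which are outgrowths of the tissue beneath them. A female bud at this stage holds a young inferior ovary together with sepals, petals and stigma, so its RNA comes from organ boundaries, epidermis, vascular tissue and developing ovules at once. Gene names below are the described similarity of a cucumber protein to a protein of another plant, and not an established identity.

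The ratio of the Cshec2 mean to the WT mean could be given for 124 members and ran between 1.805 and 32.4, with a median of 2.16. It was at least 2 for 86 members, at least 3 for 24, at least 5 for 8 and at least 10 for 4. The other 2 members are listed at 0 in every WT library and have no ratio. The lowest Cshec2 library lay a median of 1.59-fold above the highest WT library, at least 2-fold above it in 20 members and 1.098-fold above it in the closest case. Summed over the 126 members, the values were 1840, 1815 and 1742 in the Cshec2 libraries and 886, 694 and 848 in the WT libraries. Only 4 members supplied 44.6% of the deposited numbers summed for Cshec2 and 47.4% of those summed for WT. Median-of-ratios scaling over the table, which centres a table of mostly lower genes, made the ratio of each of the 124 members larger, by 1.85 to 2.05 times, and their median ratio became 4.15. The ratios below are those of the values as deposited.

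**Figure D1:**
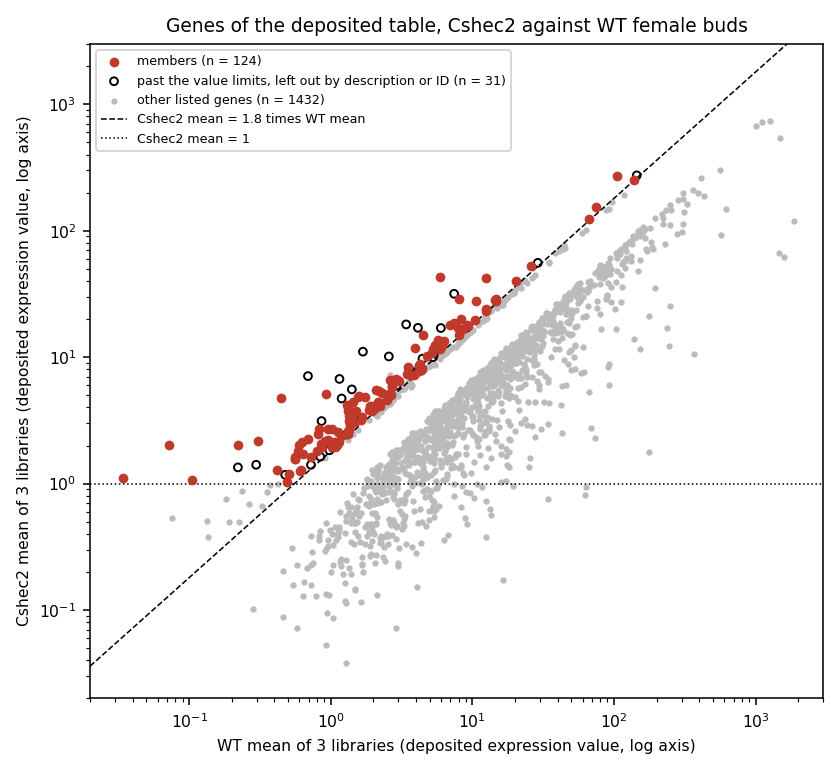
Mean deposited expression value of each gene over 3 Cshec2 libraries (vertical, log axis) against the mean over 3 WT libraries (horizontal, log axis). Filled red points are the 124 members with a WT value above 0, open circles are the 31 genes set aside by description or identifier, and grey points are 1432 other genes. The members lie on or above the dashed line of 1.8 times the WT mean, and most of them lie close to it.

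The first group, with 12 genes, was placed by description under organ boundaries, the upper and lower sides of an organ and floral identity. Some of the 12 fit these headings only loosely, and no action in these buds was tested. CUP-SHAPED COTYLEDON proteins are NAC transcription factors that keep neighbouring organs apart in Arabidopsis, and they were kept here because their description does not use the words NAC domain. CUP-SHAPED COTYLEDON 2 (Csa4G629480) measured 4.97, 3.80 and 3.51 in Cshec2 buds and 1.81, 1.94 and 1.95 in WT buds. CUP-SHAPED COTYLEDON 3 (Csa4G664400) measured 11.7, 9.53 and 9.27 in Cshec2 buds and 5.21, 3.77 and 5.32 in WT buds. Both genes were about equally shifted, with ratios of 2.16 and 2.13, and in both the first Cshec2 library was the highest of the 6. A gene described as LIGHT-DEPENDENT SHORT HYPOCOTYLS 1 (Csa2G009550), of a family of plant proteins named for an effect on seedling growth in light, measured 6.14, 9.62 and 7.94 in Cshec2 buds and 3.85, 4.01 and 5.22 in WT buds. Its ratio of 1.81 is among the 3 lowest of the members.

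CRABS CLAW (Csa5G606780), a transcription factor for carpels and nectaries in Arabidopsis, measured 253, 233 and 266 in Cshec2 buds and 168, 137 and 109.8 in WT buds, a ratio of 1.81. Its Pfam domain is that of the YABBY family, although the word is absent from its description. KAN4 (Csa2G360740), of the KANADI family that specifies the outer side of organs and of the ovule integument in Arabidopsis, measured 6.70, 4.74 and 5.11 in Cshec2 buds and 2.33, 0.793 and 3.14 in WT buds. The second WT library was far below the other two for this gene, and the ratio of the means was 2.64. OVATE family proteins repress transcription and are known for their effect on fruit shape in tomato. OFP4 (Csa3G730160) measured 7.21, 6.01 and 6.78 in Cshec2 buds and 3.12, 1.98 and 3.62 in WT buds, and OFP8 (Csa1G246610) measured 33.5, 27.7 and 24.5 in Cshec2 buds and 16.9, 13.7 and 13.6 in WT buds, with ratios of 2.29 and 1.94.

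Proteins named after snapdragon genes for the upper side of the flower were also present. The TCP gene described as CYCLOIDEA (Csa5G644520) measured 1.65, 1.51 and 1.502 in Cshec2 buds and 0.412, 0.460 and 0.811 in WT buds, with all Cshec2 values close together. The MYB gene described as RADIALIS-like 1 (Csa3G857030) measured 8.46, 8.78 and 5.95 in Cshec2 buds and 4.33, 3.16 and 5.14 in WT buds. Their ratios were 2.77 and 1.84. TORNADO 2 is a tetraspanin, a membrane protein needed for leaf symmetry and for the shoot meristem in Arabidopsis. Csa3G901690, which carries that description, measured 6.79, 3.88 and 4.62 in Cshec2 buds and 0.700, 1.13 and 0.927 in WT buds, and its ratio of 5.54 was the largest of the 12. The second gene so described, Csa3G009500, measured 1.19, 1.24 and 1.45 in Cshec2 buds and 0.658, 0.577 and 0.623 in WT buds, a ratio of 2.08. A gene whose only description is that of a CLAVATA3/ESR-related protein (Csa2G131680), of a family of short signal peptides, measured 12.3, 11.0 and 11.6 in Cshec2 buds and 5.15, 5.48 and 5.26 in WT buds. Its WT values were nearly level and its ratio was 2.20.

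The second group, with 8 members, was placed by description under the epidermis, the outer cell layer that makes stomata and trichomes. No action in these buds was tested. Of 13 table genes with trichome or epidermis words in their descriptions, 4 were called higher and 9 lower (2 lower with median-of-ratios scaling). Some of the 8 members hold none of these words. SPEECHLESS (Csa3G354520) is a bHLH protein that starts the stomatal lineage in Arabidopsis, and TOO MANY MOUTHS (Csa4G006190) is a receptor-like protein that spaces stomata there. The SPEECHLESS gene was kept because its description does not use the word bHLH. SPEECHLESS measured 4.02, 4.03 and 3.64 in Cshec2 buds and 2.29, 1.16 and 2.62 in WT buds. TOO MANY MOUTHS measured 4.40, 3.63 and 4.05 in Cshec2 buds and 1.37, 0.981 and 1.65 in WT buds. The Cshec2 libraries were even for both genes, and the ratios were 1.93 and 3.02. EPIDERMAL PATTERNING FACTOR-like protein 2 (Csa6G497000), placed here by its name alone, is a secreted peptide of the family that signals to such receptors. It measured 25.3, 22.4 and 22.1 in Cshec2 buds and 16.3, 10.4 and 10.6 in WT buds, a ratio of 1.87. KAT1 (Csa1G448920), a potassium channel of guard cells in Arabidopsis, measured 3.25, 3.66 and 3.20 in Cshec2 buds and 1.27, 0.833 and 2.04 in WT buds, a ratio of 2.44.

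GLABRA 2 is a homeobox protein that promotes trichome growth in the Arabidopsis shoot. The gene so described, Csa3G484840, measured 1.56, 2.32 and 1.51 in Cshec2 buds and 0.391, 0.605 and 0.760 in WT buds, a ratio of 3.07. GEM proteins carry a GRAM domain, and the founding member lowers GLABRA 2 expression in the Arabidopsis root. GEM-like protein 4 (Csa5G579030) measured 1.97, 2.70 and 1.68 in Cshec2 buds and 0.886, 0.346 and 0.640 in WT buds, and GEM-like protein 8 (Csa5G579020) measured 7.80, 6.85 and 4.96 in Cshec2 buds and 3.60, 1.73 and 3.54 in WT buds. Their identifiers differ by 10, the usual step of this numbering, and their ratios were 3.39 and 2.21. The third gene of the kind, Csa5G352640, measured 2.88, 2.31 and 2.26 in Cshec2 buds and 1.34, 1.34 and 1.30 in WT buds, with WT values that were almost equal and a ratio of 1.87. Reads may have been divided among such similar genes, which makes the value of each one uncertain, as it does those of the other genes below that share a description.

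**Figure D2:**
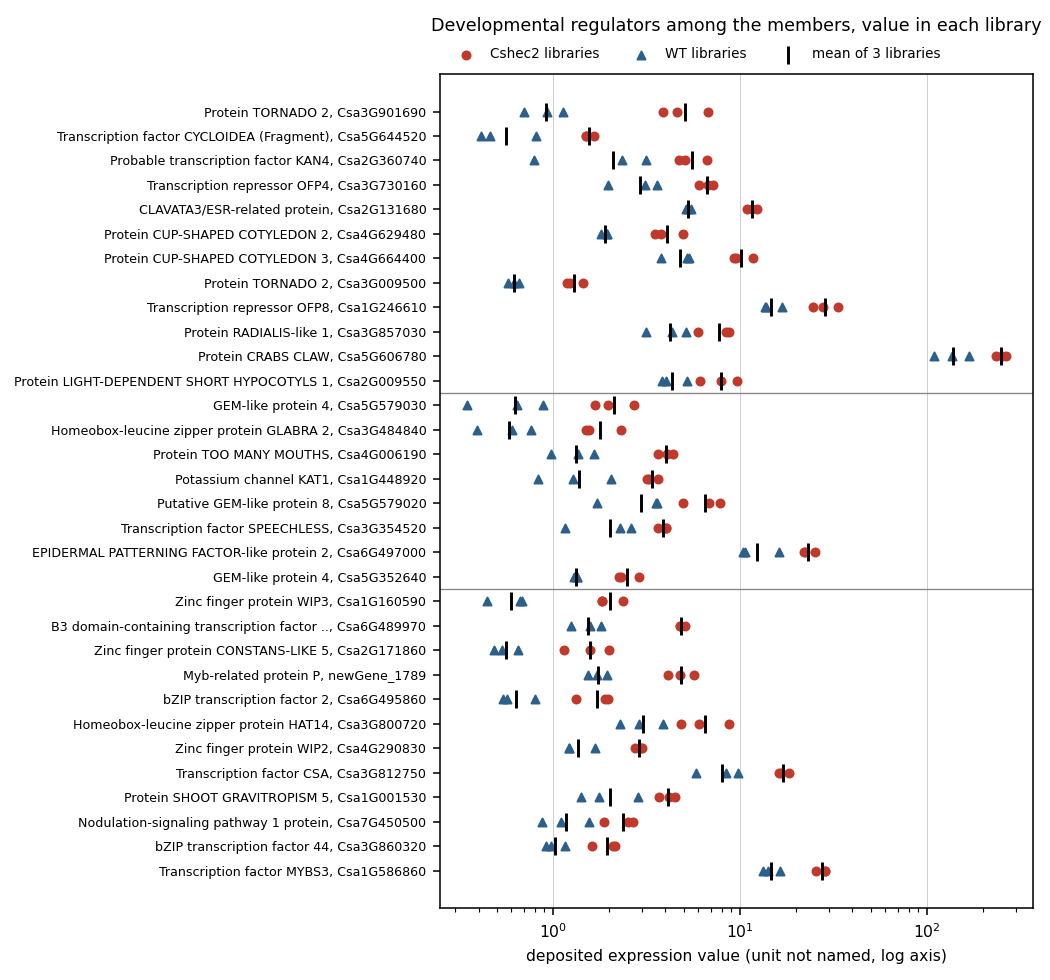
Deposited expression value (log axis) of 32 members in each library, with Cshec2 libraries as red circles, WT libraries as blue triangles and the mean of 3 libraries as a black bar. From the top, the blocks are organ boundary, polarity and floral identity genes, epidermal and stomatal genes, and other transcriptional regulators. The largest ratio of means is that of TORNADO 2 (Csa3G901690).

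The third group holds 12 further transcriptional regulators, with ratios between 1.88 and 3.35. WIP proteins are zinc finger proteins, and WIP2 is known in Arabidopsis as NO TRANSMITTING TRACT, after the pollen tube path that is missing in its mutant. WIP2 (Csa4G290830) measured 2.75, 2.99 and 2.97 in Cshec2 buds and 1.21, 1.21 and 1.67 in WT buds, and WIP3 (Csa1G160590) measured 1.83, 2.37 and 1.83 in Cshec2 buds and 0.684, 0.445 and 0.670 in WT buds. The ratios were 2.13 and 3.35, the second being the largest of the 12. A B3 domain gene described as VRN1 (Csa6G489970), after an Arabidopsis gene of the response to winter cold, measured 4.76, 4.79 and 5.06 in Cshec2 buds and 1.58, 1.25 and 1.82 in WT buds, and the Cshec2 values were nearly level. CONSTANS-LIKE 5 (Csa2G171860), of the family of the flowering regulator CONSTANS, measured 1.59, 2.00 and 1.15 in Cshec2 buds and 0.653, 0.483 and 0.536 in WT buds. Their ratios were 3.14 and 2.83.

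The MYB family gave 3 genes of this group. Cucumis_sativus_newGene_1789, described as Myb-related protein P, a pigment regulator of maize, measured 5.66, 4.12 and 4.78 in Cshec2 buds and 1.95, 1.72 and 1.54 in WT buds. Csa3G812750, described as the rice protein CSA, which directs sugar to the anther, measured 18.3, 16.1 and 16.5 in Cshec2 buds and 9.77, 5.80 and 8.38 in WT buds. Csa1G586860, described as MYBS3, a rice repressor of an amylase gene, measured 28.6, 28.5 and 25.6 in Cshec2 buds and 16.4, 14.2 and 13.3 in WT buds. Ratios were 2.79, 2.13 and 1.88 in that order. For bZIP transcription factor 2 (Csa6G495860) the values were 1.32, 1.96 and 1.90 in Cshec2 buds and 0.540, 0.571 and 0.804 in WT buds, and for bZIP transcription factor 44 (Csa3G860320) they were 2.14, 2.09 and 1.63 in Cshec2 buds and 1.16, 0.982 and 0.913 in WT buds. HAT14 (Csa3G800720), a homeobox-leucine zipper protein, measured 8.71, 6.03 and 4.83 in Cshec2 buds and 2.89, 2.29 and 3.89 in WT buds, the first Cshec2 library lying well above the third. SHOOT GRAVITROPISM 5 (Csa1G001530), a zinc finger protein of the bending response of Arabidopsis stems, and the GRAS protein described as nodulation-signaling pathway 1 (Csa7G450500) had ratios of 2.05 and 2.00.

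Enzymes that act on walls, glucosides and sugars, together with a wall glycoprotein, came to 10 members. Beta-glucosidases release sugars from glucosides. Beta-glucosidase 24 (Csa1G611290) measured 1.92, 3.78 and 8.69 in Cshec2 buds and 0.495, 0.120 and 0.733 in WT buds, and its ratio of 10.7 became 6.34 without the third Cshec2 library. Beta-glucosidase 12 (Csa1G612320) measured 12.8, 13.0 and 11.1 in Cshec2 buds and 9.19, 5.59 and 3.66 in WT buds, with the first WT library closest to the Cshec2 values and a ratio of 2.00. Endoglucanases cut cellulose-like glucans. Cucumis_sativus_newGene_1662, described as endoglucanase 4-like, measured 1.55, 2.75 and 2.19 in Cshec2 buds and 0.336, 0.0918 and 0.494 in WT buds, a ratio of 7.04, and Csa1G467170, described as endoglucanase 12, measured 5.92, 7.20 and 8.57 in Cshec2 buds and 4.02, 3.40 and 4.24 in WT buds, a ratio of 1.86. For the callose-cutting type of enzyme, the glucan endo-beta-glucosidase gene Csa6G523410 measured 5.74, 5.26 and 5.26 in Cshec2 buds and 2.36, 1.78 and 2.45 in WT buds, a ratio of 2.47, and its Cshec2 values were nearly level.

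Among the builders of the wall, the glucomannan mannosyltransferase gene Csa3G748790 was the member closest to the limit of 1 for the Cshec2 mean. It measured 0.864, 1.07 and 1.14 in Cshec2 buds and 0.437, 0.341 and 0.696 in WT buds, a ratio of 2.08. FASCICLIN-like arabinogalactan protein 14 (Csa3G881690), a surface glycoprotein, measured 2.64, 2.51 and 2.68 in Cshec2 buds and 1.33, 1.38 and 1.24 in WT buds, and both genotypes were even. The fucosyltransferase gene Csa4G063460, for an enzyme that adds fucose to xyloglucan, had a ratio of 1.82, and trichome birefringence-like 2 (Csa2G348910), of a family that acetylates wall polymers, had 1.84. Csa6G074000, described as the sugar epimerase GAL10, measured 24.6, 22.4 and 25.0 in Cshec2 buds and 12.6, 12.1 and 12.7 in WT buds, a ratio of 1.93.

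Lipid enzymes gave 5 members, 3 of which share the description FAO4A, a long-chain-alcohol oxidase that turns fatty alcohols into aldehydes. Cucumis_sativus_newGene_1136 measured 2.01, 2.07 and 2.03 in Cshec2 buds and 0.1004, 0.0352 and 0.0813 in WT buds. In this gene the Cshec2 values were nearly equal, and the WT values were close to 0, giving a ratio of 28.1. The gene Csa4G246410 measured 3.20, 3.93 and 3.09 in Cshec2 buds and 1.46, 0.866 and 1.71 in WT buds, and Csa4G246910 measured 4.40, 5.18 and 5.55 in Cshec2 buds and 3.56, 2.60 and 1.88 in WT buds. Their ratios were 2.53 and 1.88, so one of the 3 genes stood far from the other pair. Patatin-like protein 7 (Csa6G405300), of a family of lipid hydrolases, measured 2.03, 2.91 and 1.84 in Cshec2 buds and 1.04, 0.392 and 0.628 in WT buds, and glycerol-3-phosphate acyltransferase 1 (Csa6G423450) measured 4.23, 5.76 and 5.25 in Cshec2 buds and 2.37, 3.07 and 2.35 in WT buds.

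Enzymes of specialised metabolism, pigments and redox reactions made up 15 members. Csa3G821020 is described as feruloyl CoA ortho-hydroxylase 1, which leads to the coumarin scopoletin. It measured 3.39, 1.95 and 2.77 in Cshec2 buds and 0.493, 0.604 and 1.40 in WT buds, and its ratio of 3.25, the largest of the 15, became 4.93 without the third WT library. Csa3G153170, described as the dioxygenase SRG1, measured 28.9, 29.6 and 25.7 in Cshec2 buds and 12.5, 8.98 and 10.3 in WT buds, a ratio of 2.65. An anthocyanin malonyltransferase gene (Csa5G639480) measured 4.90, 8.22 and 6.76 in Cshec2 buds and 2.63, 1.48 and 3.76 in WT buds, and a flavanone dioxygenase gene (Csa1G033050), of the flavonoid pathway, measured 3.86, 3.39 and 2.86 in Cshec2 buds and 2.34, 1.53 and 1.15 in WT buds. Their ratios were 2.53 and 2.01. Csa5G157290, described as geraniol 8-hydroxylase, is a cytochrome P450 by its Pfam domain and measured 0.889, 1.91 and 1.03 in Cshec2 buds and 0.358, 0.336 and 0.556 in WT buds. The iridoid glucosyltransferase gene Csa1G527850 and the terpene synthase 10-like gene Cucumis_sativus_newGene_1337 had ratios of 2.48 and 1.98.

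A pair of genes whose identifiers differ by 10, Csa1G600160 and Csa1G600170, is described as protochlorophyllide-dependent translocon component 52, a chloroplast envelope oxygenase with a Rieske iron-sulphur centre. Csa1G600160 measured 128, 126 and 119 in Cshec2 buds and 69.0, 59.0 and 71.6 in WT buds. Csa1G600170 measured 160.2, 158 and 147 in Cshec2 buds and 87.4, 64.6 and 70.8 in WT buds. Their ratios were 1.87 and 2.09, and the Cshec2 libraries lay closer together than the WT libraries for both genes. The dioxygenase NCED5 makes the precursor of abscisic acid, and its gene Csa1G435760 was kept because the description does not name that hormone. It measured 6.81, 8.47 and 6.68 in Cshec2 buds and 2.69, 1.94 and 5.83 in WT buds, with the third WT library close to the lowest Cshec2 value. Its ratio of 2.10 became 3.16 without that WT library.

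Respiratory burst oxidases produce superoxide outside the cell. The gene for homolog E (Csa5G529950) measured 2.20, 2.09 and 2.11 in Cshec2 buds and 0.702, 1.07 and 1.39 in WT buds, and the gene for homolog H (Csa6G301070) measured 2.10, 2.00 and 1.77 in Cshec2 buds and 0.692, 1.30 and 1.21 in WT buds. Both had even Cshec2 values and a low first WT library, and their ratios were 2.03 and 1.83. Alcohol dehydrogenase 1 (Csa7G322060), the fermentation enzyme, measured 19.6, 18.0 and 21.4 in Cshec2 buds and 9.41, 8.72 and 13.2 in WT buds, a ratio of 1.88. The flavin monooxygenase gene Csa6G133660 measured 1.36, 1.51 and 0.930 in Cshec2 buds and 0.848, 0.588 and 0.390 in WT buds, and its lowest Cshec2 library was the closest of any member to the highest WT library. The cytochrome b561 gene Csa3G073280 had a ratio of 1.87.

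**Figure D3:**
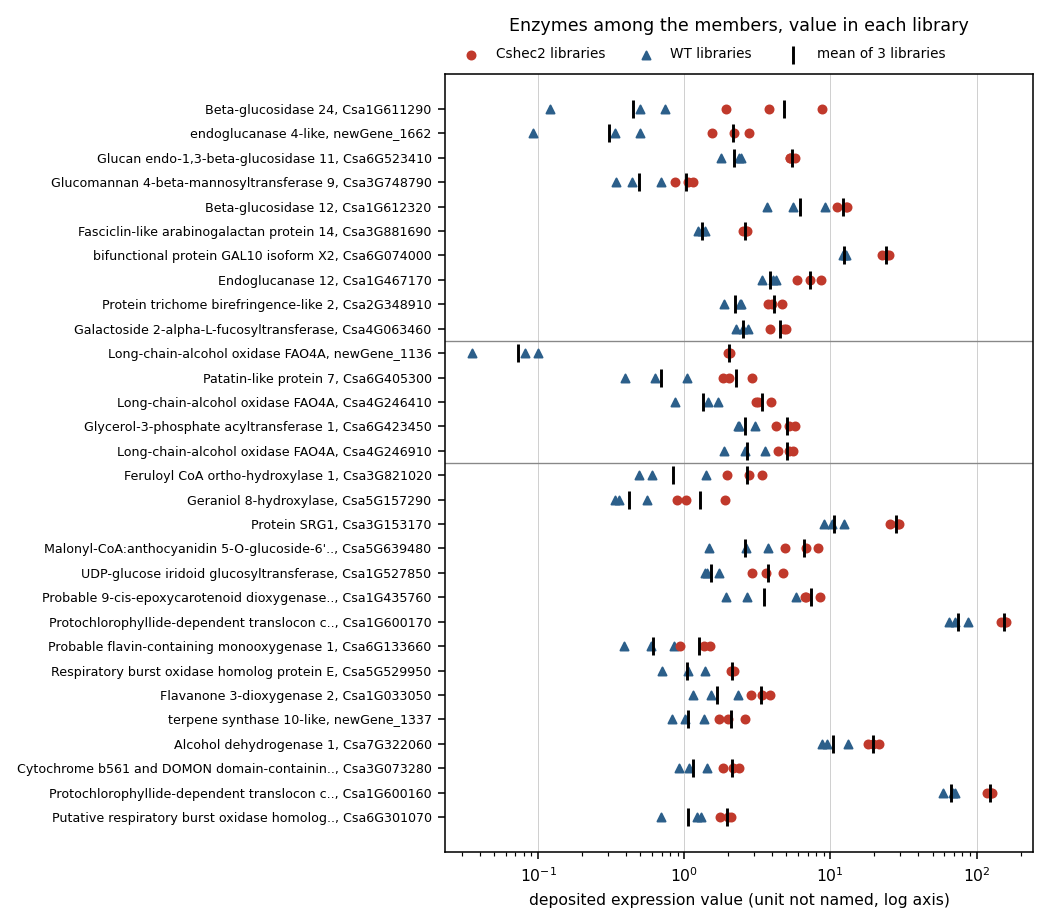
Deposited expression value (log axis) of 30 members that encode enzymes or wall proteins, in each library, with Cshec2 libraries as red circles, WT libraries as blue triangles and the mean of 3 libraries as a black bar. From the top, the blocks are wall and sugar proteins, lipid enzymes, and enzymes of specialised metabolism, pigments and redox reactions. FAO4A (newGene_1136) has the widest gap, and the flavin-containing monooxygenase and NCED5 have the narrowest distance between a WT and a Cshec2 library.

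Enzymes of amino acids, polyamines and sugar phosphates gave 6 members. The sugar phosphatase described as Sgpp (Csa3G016920) measured 259, 317 and 238 in Cshec2 buds and 95.6, 67.7 and 150.0 in WT buds, a ratio of 2.60, with the WT libraries further apart than the Cshec2 libraries. ACAULIS5 (Csa2G000240) makes thermospermine, a polyamine that restrains xylem formation in Arabidopsis, and measured 3.98, 2.95 and 2.35 in Cshec2 buds and 1.45, 1.12 and 1.87 in WT buds, a ratio of 2.09. Tryptophan synthase beta (Csa1G064170) measured 6.12, 4.85 and 6.71 in Cshec2 buds and 2.95, 2.24 and 2.91 in WT buds, a ratio of 2.18. Argininosuccinate synthase (Csa1G050380), in arginine synthesis, measured 5.05, 5.10 and 4.99 in Cshec2 buds and 2.77, 2.04 and 3.11 in WT buds, with level Cshec2 values. The acetylornithine deacetylase gene (Csa3G902920), in ornithine synthesis, and a phosphoglycerate mutase-like gene (Csa3G893370) had ratios of 2.06 and 2.22.

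Genes of meiosis, small RNAs and mobile elements were few, with 7 members together with a ribosomal protein. MSH4 and MSH5 are MutS proteins that pair to stabilise crossovers in meiosis. MSH5 (Csa3G064210) measured 1.11, 2.05 and 1.70 in Cshec2 buds and 0.596, 0.583 and 0.497 in WT buds. MSH4 (Csa5G165160) measured 1.84, 1.87 and 2.31 in Cshec2 buds and 1.49, 1.07 and 0.778 in WT buds. The ratios were 2.90 and 1.805, and the second is the lowest ratio of any member. A gene described as Dicer homolog 3 (Cucumis_sativus_newGene_82), an enzyme that cuts double-stranded RNA into small interfering RNAs, measured 2.495, 2.78 and 2.81 in Cshec2 buds and 1.59, 0.438 and 1.05 in WT buds. Genes described as retrotransposon proteins were Cucumis_sativus_newGene_683, which measured 2.23, 1.90 and 1.97 in Cshec2 buds and 0.156, 0.166 and 0.347 in WT buds, and Cucumis_sativus_newGene_1531, which measured 2.19, 1.52 and 1.74 in Cshec2 buds and 0.737, 0.469 and 1.18 in WT buds. Their ratios were 9.13 and 2.28. A transposase-like gene described as ALP1-like (Cucumis_sativus_newGene_725) had a ratio of 1.93, and ribosomal protein L23 (CsaUNG024960) one of 2.12.

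Signalling, membrane and trafficking genes, with proteolysis, were the largest described group, with 17 members. A BTB/POZ domain gene (Csa6G358060), of a domain that often brings proteins together for turnover, measured 1.03, 1.20 and 1.09 in Cshec2 buds and 0.00942, 0.0309 and 0.0622 in WT buds. It had the largest ratio of any member, 32.4, against WT values close to 0, and that ratio became 54.9 without the third WT library. GLUTAMINE DUMPER 4 (Csa4G122800), of a family that affects amino acid export in Arabidopsis, measured 2.70, 2.79 and 7.09 in Cshec2 buds and 1.64, 0.728 and 1.57 in WT buds. The third Cshec2 library stood apart, and the ratio of 3.19 became 2.09 without it. A secretory protein gene with cysteine-rich repeats (Csa3G610280) was likewise highest in the third Cshec2 library, at 1.58, 2.11 and 4.49 in Cshec2 buds and 1.15, 1.02 and 0.693 in WT buds. A cucumisin gene (Csa5G187870), for a protease first known from melon fruit, measured 3.16, 4.89 and 3.15 in Cshec2 buds and 1.17, 0.975 and 1.799 in WT buds, a ratio of 2.84.

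Further signalling genes follow. The gene for subunit gamma 3 of the G protein (Csa1G597050), which affects organ size in Arabidopsis, measured 16.3, 14.8 and 13.4 in Cshec2 buds and 9.59, 6.53 and 8.13 in WT buds. GAST1 (Csa3G841990), named in tomato as a transcript raised by gibberellin, measured 15.8, 18.0 and 19.2 in Cshec2 buds and 12.7, 6.95 and 8.10 in WT buds, and the calmodulin-binding IQ-DOMAIN 1 gene (Csa2G222130) measured 9.08, 8.68 and 8.95 in Cshec2 buds and 5.70, 3.68 and 3.38 in WT buds. Ratios for these genes were 1.84, 1.91 and 2.09. In the membrane and transport machinery, flotillin-like protein 4 (Csa2G382440) measured 28.5, 28.9 and 28.1 in Cshec2 buds and 16.3, 12.1 and 15.1 in WT buds, and the auxilin-related gene Csa6G524620 measured 20.7, 19.7 and 19.5 in Cshec2 buds and 5.17, 7.61 and 12.3 in WT buds. Myosin-11 (Csa7G372940), a motor on actin filaments, and myosin-binding protein 1 (Csa6G410080), which links such motors to vesicles, had ratios of 1.91 and 1.94. A seed lectin gene (Csa5G428440), of the ricin type, measured 12.7, 21.8 and 21.7 in Cshec2 buds and 9.86, 4.45 and 8.10 in WT buds, a ratio of 2.51. Further members of the group, with ratios between 1.94 and 3.10, were a WAT1-related membrane protein (Csa5G602730), an endoplasmic reticulum body protein (Csa7G352500), the ring finger protein ATL60 (Csa3G646670), a universal stress protein (Csa7G397010) and a clathrin assembly protein (Csa7G058550). The median ratio of the 17 was 2.21.

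The remaining 34 members have no role in their description that could be stated. The 2 genes listed at 0 in all WT libraries are among them. Csa6G408210, known only as a hypothetical protein, measured 7.32, 7.57 and 8.47 in Cshec2 buds and is listed at 0 in each WT library. CsaUNG024780, which has no description, measured 11.7, 8.66 and 6.22 in Cshec2 buds and is also listed at 0 in each WT library. No fold is given for either gene. Csa4G639110, a hypothetical protein, measured 54.9, 33.8 and 41.0 in Cshec2 buds and 9.01, 1.93 and 6.90 in WT buds, a ratio of 7.27. Cucumis_sativus_newGene_1265, whose Pfam entry is a stress-raised nodulin, measured 0.613, 1.14 and 1.47 in Cshec2 buds and 0.0481, 0.0282 and 0.241 in WT buds, and its ratio of 10.2 became 28.2 without the third WT library. Without a description, Cucumis_sativus_newGene_527 measured 43.2, 42.6 and 40.5 in Cshec2 buds and 13.5, 10.1 and 14.1 in WT buds, a ratio of 3.34, and its libraries were even within each genotype. Ratios in this group ran between 1.83 and 10.2, with a median of 2.28.

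Members without a Swiss-Prot description were 38 of 126 (30.2%), against 36 of the 167 other genes that the authors listed as higher (21.6%) and 371 of the 1589 in the table (23.3%). Identifiers of the newGene form, which carry no chromosome digit, made up 15 of the 126 members (11.9%), 13 of the other 167 higher genes (7.78%) and 60 of the 1589 table genes (3.78%). Where the identifier carries a chromosome digit, members made up between 5.14% of the listed genes on chromosome 4 and 8.74% of those on chromosome 3, with 27 members on chromosome 3 and 18 each on chromosomes 1 and 6. These shares are descriptions with no test.

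In 4 places along the numbering, members had identifiers within 50 of each other. Besides the translocon pair and the GEM-like pair, these were Csa1G586850 with the MYBS3 gene Csa1G586860, and Csa6G425750 with Csa6G425770. Csa1G586850, of unknown function, measured 58.8, 50.4 and 48.2 in Cshec2 buds and 27.1, 25.6 and 25.4 in WT buds, a ratio of 2.01, beside 1.88 for its neighbour. Csa6G425770, a hypothetical protein, measured 33.4, 26.2 and 26.9 in Cshec2 buds and 8.88, 6.88 and 8.27 in WT buds, a ratio of 3.60, and Csa6G425750 had 1.84. The gene numbered between them, the NAC gene Csa6G425760, was set aside by its description and measured 19.8, 13.9 and 17.3 in Cshec2 buds and 7.16, 6.14 and 4.70 in WT buds. All 3 genes in that run were thus higher in the Cshec2 libraries, by different amounts. Their positions in the genome were not used here.

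Spread within a genotype was larger in WT than in Cshec2 for 75 of the 126 members (59.5%), against 112 of the 167 other higher genes (67.1%) and 78.5% of the whole table. The median SD of log2(value + 1) over 3 libraries was 0.15 in Cshec2 and 0.21 in WT for the members, and 0.13 in Cshec2 and 0.28 in WT for the table. The rule favours genes whose libraries do not overlap, so this comparison is not independent of the choice. Among the 124 members with a WT value above 0, the lowest WT library was the second in 64, the third in 38 and the first in 22, while over the 1587 such genes of the table it was the second in 34.7% and the first in 37.7%. The highest Cshec2 library was the first in 55 members, the second in 42 and the third in 29. The highest WT library was at least 3-fold above the lowest in 8 members, among them KAN4, NCED5 and the Dicer homolog. The highest Cshec2 library was at least 2-fold above the lowest in 5, among them beta-glucosidase 24 and GLUTAMINE DUMPER 4. The median of the highest over the lowest library was 1.27 in Cshec2 and 1.63 in WT for the members. For the table it was 1.27 in Cshec2 and 1.61 in WT.

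**Figure D4:**
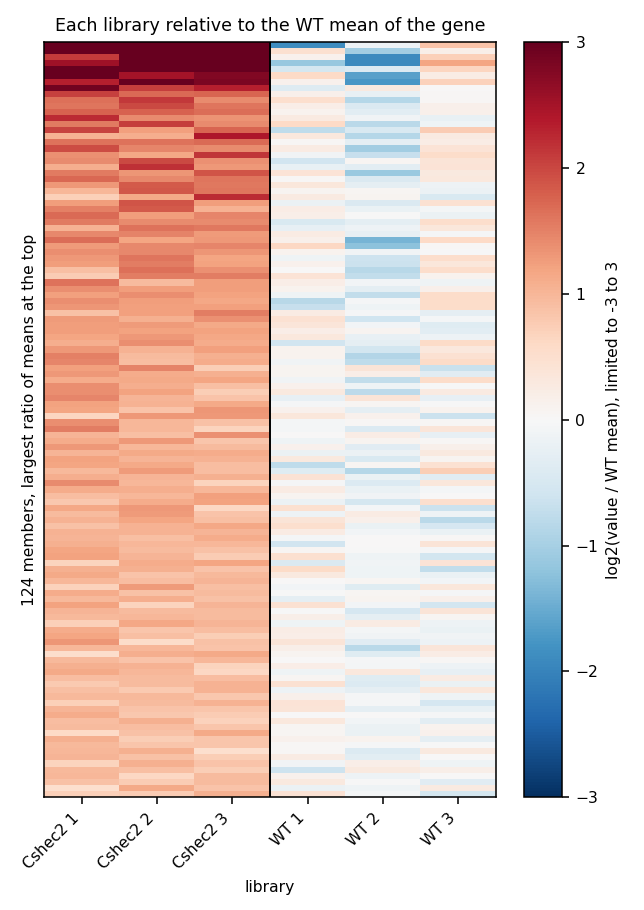
Each library's value relative to the WT mean of the same gene, as log2(value / WT mean) limited to -3 to 3, for the 124 members with a WT value above 0, from the largest ratio of means at the top to the smallest. Columns are Cshec2 libraries 1 to 3 and WT libraries 1 to 3. The Cshec2 columns are red throughout, and the second WT library shows the most blue, being the lowest WT library in 64 of these members.

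Of the 1589 genes, 293 (18.4%) are listed as higher in the authors' deposited table, among them all 126 members, which the choice of members fixes. The log2 fold change given there lay below the log2 of the ratio of means in 123 of 124 members, with medians of 0.89 and 1.11. The difference was at least 1 in 6 genes. For beta-glucosidase 24 (Csa1G611290) the authors' deposited table gives a log2 fold change of 1.04, against a log2 ratio of means of 3.42. For the BTB/POZ gene Csa6G358060 the authors' deposited table gives 2.25, against 5.02. The others were Cucumis_sativus_newGene_1136, Cucumis_sativus_newGene_1265, Csa4G639110 and Cucumis_sativus_newGene_1662. How the deposited fold changes were computed from the libraries is not given in the sources used here.

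Values next to the limits were close on both sides. Just inside the limit of 1.8 lay MSH4, LIGHT-DEPENDENT SHORT HYPOCOTYLS 1 and CRABS CLAW, with ratios of 1.805, 1.812 and 1.813. Just outside it lay an S-adenosylmethionine decarboxylase gene (Csa6G062290), TCP15 (Csa1G033030) and the sugar transport protein MST4 (Csa3G845480), with ratios of 1.79998, 1.796 and 1.795. Just inside the limit of 1 for the Cshec2 mean lay Csa3G748790, Cucumis_sativus_newGene_1265 and Csa6G358060, with means of 1.02, 1.07 and 1.11. Just outside it lay Cucumis_sativus_newGene_1581, the ring finger gene ATL16 (Csa3G393910) and a carboxylesterase gene (Csa2G234510), with means of 0.988, 0.882 and 0.863.

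Across the table, limma (with Benjamini-Hochberg adjusted p under 0.05) called 293 of the 1589 genes higher (18.4%) and 1180 lower (74.3%), with a median log2 change of -0.77. With median-of-ratios scaling 293 were higher and 225 lower, with a median of -0.02, so the lower calls and the sign of the medians rest on the values as deposited. Counts with that scaling are given below as scaled counts, and no list had more or fewer higher genes with it. Keyword lists show what else of each function stood in the table. Of 128 genes in the transcription factor list, 28 were higher (14 of them members), 94 lower and 6 did not pass, with a median log2 change of -0.83 (21 lower and a median of -0.14 scaled). The trichome and epidermis list held 13 genes, of which 4 were higher and 9 lower (median -0.66; 2 lower and a median of 0.22 scaled), and all 4 higher genes were members: SPEECHLESS, GLABRA 2, EPIDERMAL PATTERNING FACTOR-like protein 2 and trichome birefringence-like 2. The meristem and organ list held 21 genes, with 4 higher, 15 lower and 2 not passing (median -0.70; 3 lower and a median of 0.06 scaled). Its 4 higher genes were members, but the G protein and Dicer genes entered it only by the spelling of their descriptions. CUP-SHAPED COTYLEDON 2 and 3, CRABS CLAW and TOO MANY MOUTHS are in no list, because their descriptions hold none of the words.

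Lists of metabolism follow. In the carbohydrate list 10 of 47 genes were higher and 30 lower (median -0.71; 8 lower and a median of 0.08 scaled), with 6 members. In the lipid and wax list 7 of 59 were higher and 50 lower (median -0.89; 8 lower and a median of -0.11 scaled), with 4 members. In the redox list 16 of 112 were higher and 89 lower (median -0.81; 16 lower and a median of -0.06 scaled), with 9 members, and in the photosynthesis and chloroplast list 10 of 73 were higher and 57 lower (median -0.79; 10 lower and a median of -0.09 scaled), with 5. The descriptions of those 10 higher chloroplast genes all hold the word chloroplastic, so the genes need not act in photosynthesis. NCED5, tryptophan synthase and argininosuccinate synthase are among them. The cell wall list had 5 of 31 higher and 23 lower, the phenylpropanoid and terpenoid list 5 of 30 higher and 25 lower, and the amino acid and nitrogen list 7 of 59 higher and 43 lower. In these lists 1, 2 and 2 genes were members, and the scaled counts of lower genes were 7, 7 and 8.

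Of the lists that mark a cell type, the vascular and phloem list had 8 of 23 genes higher and 13 lower (median -0.45; 1 lower and a median of 0.14 scaled). Its 8 higher genes were 3 described as SIEVE ELEMENT OCCLUSION B, a phloem protein, none of them members, both TORNADO 2 genes, and the seed lectin gene with a pair of receptor kinases that the word lectin took in. The summed value of the list lay between 162 and 173 in Cshec2 libraries and between 180 and 280 in WT libraries. The summed value of the trichome and epidermis list lay between 224 and 236 in Cshec2 libraries and between 308 and 438 in WT libraries. The ovule and seed list held 3 genes, 1 higher and 2 lower, of which 0 were lower scaled, with sums between 41.1 and 49.0 in Cshec2 libraries and between 43.2 and 58.4 in WT libraries. These list sums are of the values as deposited and were not recomputed with scaling. Median-of-ratios scaling divides the Cshec2 libraries by 0.716 to 0.736 and the WT libraries by 1.28 to 1.57. The order of the genotypes in the sums therefore rests on the deposited values. The part of any change in cell types in the members' values was not tested. No member stood in the lists for defence (0 higher, 19 lower of 21), heat shock and chaperones (0 higher, 9 lower of 13), proteases (1 higher, 26 lower of 27; its words do not find the member cucumisin) or chromatin and replication (3 higher, 3 lower of 6; its words do not find the DNA mismatch repair members MSH4 and MSH5). Scaled, these had 5, 1, 5 and 0 lower genes. The other lists with members were mobile elements (4 higher and 2 lower of 6), RNA processing (4 and 2 of 6), ribosome and translation (2 and 2 of 5), cell cycle and cytoskeleton (7 and 14 of 23), other transport proteins (4 and 23 of 30) and other hormone genes (1 and 27 of 31), with 0, 0, 1, 2, 3 and 5 lower genes scaled in that order. Some words also took in genes by spelling alone, such as threonine-protein kinases in the amino acid list and interacting proteins in the cytoskeleton list.

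**Figure D5:**
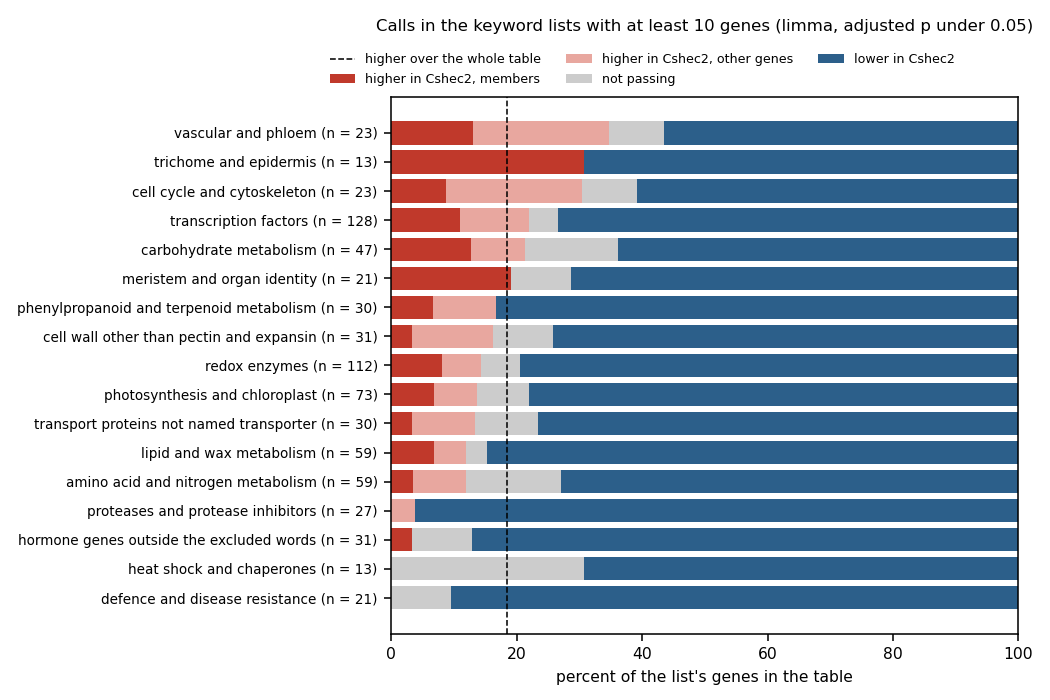
Share of each keyword list's genes in the table (percent) that limma called higher or lower in Cshec2 or that did not pass, for lists of at least 10 genes, with members in dark red, other higher genes in pale red, genes that did not pass in grey and lower genes in blue. The dashed line marks 18.4%, the share called higher over all 1589 genes. All higher genes of the trichome and epidermis list and of the meristem and organ list are members, and the defence and heat shock lists have none.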

How the data were processed

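RNA was measured in 3 Cshec2 and 3 WT libraries of female buds, made from total RNA extracted with Trizol, per the labels' protocols. The authors deposited a normalised signal of expression for each gene and library. Its unit is not stated, so depth is unknown and no interval or limit that needs it is given. The submitters' processing notes list HISAT, HISAT2 and DESeq2 with neither version nor role, and the genome build is not given in the sources used here. Per the file headers, the FDR column is the adjusted p-value and the log2 fold change column the log2 change of the authors' own comparison of the genotypes. Columns were matched to samples by genotype and by the number in the sample title.

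Ratios are of arithmetic means. The genotypes were fitted over the whole table by limma (version 3.58.1, under R version 4.3.3) on log2(value + 1) with a variance trend and no filter, which understates changes of low genes. The table holds only genes the authors had selected on these libraries, so its counts of calls are not independent evidence. The fit was checked on simulated data in which most genes were unchanged, unlike this table. That check covers only whether known changes are called, and it says nothing about the counts here. Lists were 23 sets of keywords, matched in the Swiss-Prot description, or in the NR description where that was missing. The members and lists were chosen with earlier results of these data known, and the grouping of members by role was made after their values were seen. Genes to name were the 10 members with the largest ratios, the 10 with the largest Cshec2 means, up to 4 per list, 3 on each side of each limit and members with neighbouring identifiers, 61 genes in all. The other genes named were chosen after their values were seen. RefSeq's gene table holds 0 of the members' identifiers, and no coordinates or sequences are given. Figures were drawn with matplotlib 3.10.9.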

Additional observations from a re-analysis of the deposited data

How the results depend on the processing

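The number of members stayed within 1.5 times of 126 under limits of 2 on the ratio (88) and of 0.5 and 2 on the Cshec2 mean (134 and 108), and with the words matched by case (135) or also in the NR description (126). A ratio limit of 1.5 gave 227 members and median-of-ratios scaling 232, both holding all 126. Neither setting could lose a member, because the first is a looser limit and the scaling raises Cshec2 values and lowers WT values. That scaling centres a table of mostly lower genes. It moved the median log2 change of all genes by 0.74 (-0.77 as deposited, -0.02 scaled), left 293 higher genes and cut the lower genes to 225. Leaving out each library in turn gave between 120 and 136 members, 263 to 289 higher genes and 823 to 1236 lower genes. Under all 6 such omissions 85 of the 126 genes stayed members, and the lowest ratio of any member was 1.56. The ratio moved over 1.5 times for 6 members, each given above with its value. Deviations of Cshec2 and WT libraries with the same replicate number had correlations of -0.09, -0.04 and -0.18. Libraries with unlike numbers were not compared, so these values cannot show whether the libraries were paired. With a replicate block 288 genes were higher and 1104 lower. A pseudocount of 0.1 gave 293 higher and 1193 lower genes, and a mean of at least 1 gave 271 and 1103 of 1492. Median-of-ratios scaling made the ratio of every one of the 124 members with a WT value above 0 larger, by 1.85 to 2.05 times. Of the 59 named ratios recomputed with it, 53 moved by more than 1 SD. Leaving out a library moved 0 of the named ratios by more than 1 SD. Dropping 1 of 3 libraries shifts a group mean by less than 1 SD of that group. That 0 was therefore largely fixed beforehand and does not show that the ratios are stable. None of these ratios changed direction, and none could. The named genes were chosen with Cshec2 libraries wholly above the WT libraries, and the scaling raises Cshec2 values and lowers WT values. The scaled ratios and list counts and the settings for the spread within genotypes were chosen after seeing the data, and the settings for the spread kept its medians within 1 SD.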
